A study of Mus musculus with 34 samples.

Results

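The stretch of mouse chromosome 12 from Evl and Yy1 to just beyond Traf3, on the centromeric side of the immunoglobulin heavy chain locus Igh, was described window by window in 4C data from 2 plasmacytomas. It covers chr12:109800001-113400000 of the mouse build mm9 as 18 consecutive windows of 200 kb, of 12836 windows in the whole genome, and lies 1 to 4.6 Mb below the bait window, chr12:114400001-114600000. All windows that lie wholly between 109.8 and 113.4 Mb were taken, and these bounds were chosen with earlier results of these data known. Evl and Yy1 are placed near 109.8 to 110.2 Mb and Traf3 near 112.4 Mb. Gene positions in mm9 were not used here, so which window holds which gene, and how many genes each window holds, was not checked.

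4C (circular chromosome conformation capture) cuts crosslinked chromatin with a restriction enzyme, in this study HindIII, and reads out which fragments had joined to 1 bait, placed in Igh. Both groups are tumors of antibody-secreting plasma cells from Balb/c mice, and each is 1 tumor line with 2 libraries. For PCT4961 the labels add the genotype AID-/- BclXL, and for TEPC1165 they give none. AID is the enzyme that starts class switching of antibody genes, and BclXL is a survival protein. Genotype and tumor line therefore cannot be told apart. Read counts pool all cells and all copies of Igh, so that fewer cells with a contact and a rarer contact per cell cannot be told apart, and the labelled cell type cannot be checked against marker expression in 4C data.

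In total, 1668589 and 2178689 reads were counted in PCT4961, and 1890718 and 1776498 in TEPC1165. The share of reads outside the bait region, the 11 windows within 1 Mb of the bait window, was 62.8% and 62.7% in PCT4961 and 91.8% and 88.4% in TEPC1165. RPM values below are reads per 1000000 of those outside reads. By detected share, libraries with the same replicate number resembled each other across the tumors, with a Pearson correlation over the 18 windows of 0.985 and 0.988, against 0.928 and 0.927 within a tumor. By log2 reads the Pearson correlation was lower across the tumors, at 0.662 and 0.690 against 0.926 and 0.754 within. Spearman's rho was 0.645 and 0.827 across and 0.862 and 0.754 within. The points of these correlations are neighbouring windows of the same libraries. Over 3449 windows of the genome, deviations of same-numbered libraries from their tumor's mean correlated at 0.64. In PCT4961, the window with the most TEPC1165 reads outside the bait region, chr15:61800001-62000000, held 12510 and 16799 reads against 282973 and 382973 in TEPC1165. If all of these were shared reads, PCT4961 would hold 4.42% and 4.39% of the reads of the same-numbered TEPC1165 library, and by the same reckoning at chr12:12800001-13000000 TEPC1165 would hold 2.88% and 1.72% of those of PCT4961. These are upper estimates. A fragment counts as detected with 1 read, so shared reads would tie the detected fragments of same-numbered libraries to each other. Whether reads were shared was not tested. Values from reads corrected for the estimated sharing are given beside the main ones where the correction moved them most.

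Yy1 encodes a zinc finger transcription factor that is known for its part in the folding of the Igh locus during B cell development. Evl encodes an actin regulator of the Ena/VASP family. Traf3 encodes an adaptor that restrains signalling from CD40 and the BAFF receptor in B cells, and it is a recurrent target of loss in plasma cell tumors. In the RefSeq gene order of GRCm38, used for order only, 8 genes lie between Evl and Yy1 and 139 between Yy1 and Traf3. The 148 genes between Evl and Traf3 include 21 protein-coding genes, 63 miRNAs, 32 lncRNAs and 19 snoRNAs. Going up from Yy1 come Slc25a29, Wars and Begain, and then the imprinted domain with Dlk1, Meg3, Rtl1 and Dio3, which carries most of these small RNAs. Ppp2r5c, Dync1h1 (the heavy chain of cytoplasmic dynein), Hsp90aa1 (a chaperone) and Rcor1 follow before Traf3, and Cdc42bpb, Tnfaip2, Eif5, Mark3, Ckb, Klc1 and Xrcc3 lie beyond it.

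The unit of measurement is the fragment between neighbouring HindIII sites, which read AAGCTT on both strands. Of the 4 promoters listed for the 3 genes in RefSeq (GRCm38.p6, 300 bases each, from 250 before to 50 after the start), 1 holds this site, an Evl promoter. It is shown because the boundary between 2 fragments falls inside it, with the site in capitals, at chr12:108554470-108554769 on the plus strand of GRCm38.p6, coordinates that cannot be set beside the mm9 windows.
Evl promoter: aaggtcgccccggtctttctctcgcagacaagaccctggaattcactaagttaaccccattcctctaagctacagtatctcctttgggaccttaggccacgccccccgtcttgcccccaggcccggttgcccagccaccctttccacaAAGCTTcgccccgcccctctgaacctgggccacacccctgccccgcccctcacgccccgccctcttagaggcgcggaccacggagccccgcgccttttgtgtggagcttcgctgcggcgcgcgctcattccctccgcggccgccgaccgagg
The site starts at base 149 of this sequence. The other Evl promoter and those of Yy1 and Traf3 hold no AAGCTT, and 2449 of all 32851 listed promoters (7.45%) hold it. The windows hold 37 to 72 HindIII fragments each and do not resolve single promoters.

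Contacts of Igh in the flank fell into 3 stretches, which by the share of detected fragments did not overlap with their neighbours in any of the 4 libraries. The 9 windows nearest to the bait (111.6 to 113.4 Mb, 1 to 2.8 Mb from the bait window), with the position given for Traf3 in their middle, formed a high block. The 7 windows from 110.2 to 111.6 Mb formed a trough. The 2 windows of Evl and Yy1, the farthest from the bait at 4.2 to 4.6 Mb, were high again. The borders of the stretches were drawn after the values were seen, so the contrasts between them are descriptions without a test.

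**Figure D1:**
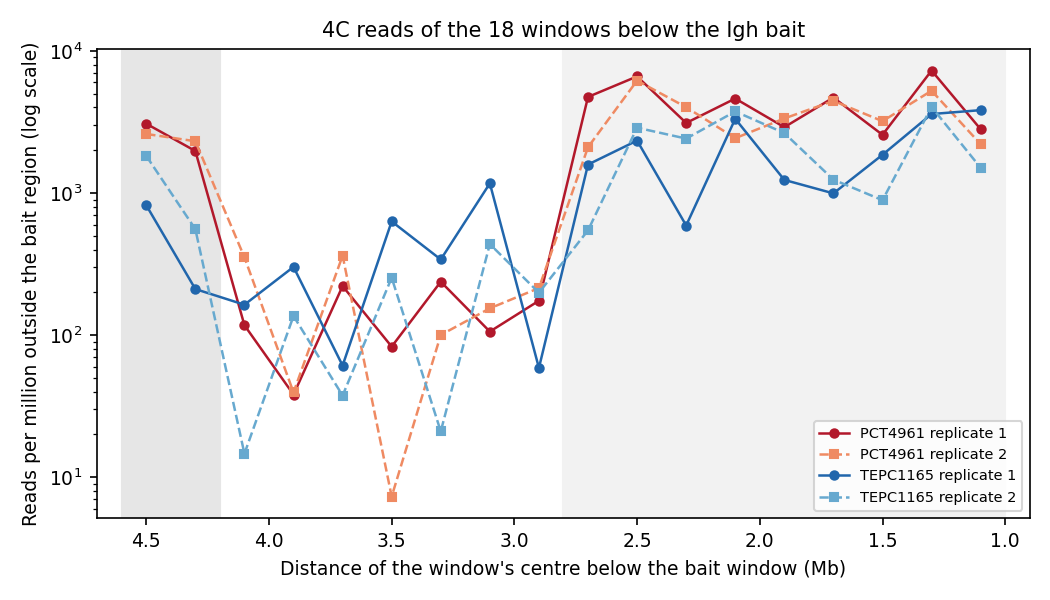
RPM (log axis) in each of the 18 windows against the distance of the window's centre below the bait window, 1 line per library, with the block near the bait and the Evl and Yy1 windows shaded. In 3 libraries every window of both shaded stretches lies above every window of the trough, and in TEPC1165 replicate 1 the stretches overlap, with 366 reads in the window starting at 110.0 Mb and 2029 in the highest window of the trough.

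The 9 windows near the bait held 86.7% and 84.4% of the flank's reads in PCT4961 and 83.7% and 85.1% in TEPC1165. Their reads ran from 2690 to 8443 per window in PCT4961 and from 857 to 6643 in TEPC1165. Of their 507 HindIII fragments, 264 (52.1%, 95% Wilson interval 47.7 to 56.4) and 254 (50.1%, 45.8 to 54.4) had reads in PCT4961, and 220 (43.4%, 39.1 to 47.7) and 217 (42.8%, 38.6 to 47.1) in TEPC1165. The lowest of the 9 windows by this share was the one from 112.4 to 112.6 Mb in 3 libraries, and its share was reached by 36 and 31 of the 12825 windows outside the bait region in PCT4961 and by 34 in TEPC1165 replicate 1. In TEPC1165 replicate 2 the lowest was the window from 112.0 to 112.2 Mb, whose share was reached by 32 windows. Among chromosome 12 windows beyond the bait region the median share was 1.75% to 2.74%, depending on the library. For the genome the median was 0. Wilson intervals of detected shares, here and below, treat the fragments of a library as separate draws and do not cover the spread between libraries.

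The position given for Traf3 falls on the border of 2 windows. The window below it, chr12:112200001-112400000, held 4841 and 3322 reads in PCT4961 and 5772 and 5884 in TEPC1165. The window above it, chr12:112400001-112600000, held 3044 and 4572 reads in PCT4961 and 2145 and 4145 in TEPC1165. Neither order held throughout. The lower window was the higher of the pair in both TEPC1165 libraries and in PCT4961 replicate 1, and the upper one in PCT4961 replicate 2. In detected fragments, 29 and 27 of 61 (PCT4961) and 27 and 26 of 61 (TEPC1165) were seen in the lower window, and 23 and 26 of 64 and 20 and 24 of 64 in the upper one. By these values the Traf3 pair lay inside the block and was not a separate maximum of it, apart from the lower window in TEPC1165, which had more reads than both of its neighbours in both libraries.

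The highest windows of the flank by reads summed over a tumor's libraries were chr12:111800001-112000000 in PCT4961 and chr12:113000001-113200000 in TEPC1165. The first, 2.4 Mb from the bait window, held 6927 and 8443 reads in PCT4961 and 4057 and 4521 in TEPC1165. The second, 1.2 Mb from the bait window, held 7620 and 7166 reads in PCT4961 and 6237 and 6328 in TEPC1165. The second had 35 and 32 detected fragments of 52 in PCT4961, and in TEPC1165 29 and 28. In PCT4961 replicate 2 the farther of these windows was the higher, and in the other 3 libraries the nearer one.

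The trough held few detected fragments in every library. Of its 385 fragments, 46 (11.9%, 95% Wilson interval 9.08 to 15.6) and 39 (10.1%, 7.50 to 13.5) had reads in PCT4961 and 44 (11.4%, 8.62 to 15.0) and 31 (8.05%, 5.73 to 11.2) in TEPC1165. No window of the trough reached the share of any window near the bait in the same library. Reads ran from 10 to 495 per window in PCT4961, where all 7 windows lay below every other window of the flank. In TEPC1165 they ran from 23 to 2029. A few TEPC1165 windows had many reads on few fragments. The window from 111.2 to 111.4 Mb held 2029 and 686 reads on 9 and 3 of 52 fragments there, against 111 and 211 reads on 10 and 3 fragments in PCT4961. The window from 110.8 to 111.0 Mb held 1095 and 398 reads on 4 and 2 of 43 fragments in TEPC1165, against 87 and 10 reads on 3 and 2 fragments in PCT4961. Reads per detected fragment over the trough were 32.7 ± 14.7 (SD, n = 2) in PCT4961 and 81.6 ± 36.7 (SD, n = 2) in TEPC1165, and 167 ± 15.8 and 148 ± 6.16 (SD, n = 2 each) in the 9 windows near the bait. The tables carry no molecular identifiers, so copies of 1 ligation product and separate ligations cannot be told apart.

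The lowest windows lay in the trough. Summed over a tumor's libraries, the lowest window of PCT4961 was chr12:110400001-110600000, with 40 and 54 reads, where TEPC1165 had 524 and 214. The lowest of TEPC1165 was chr12:110600001-110800000, with 106 and 59 reads, where PCT4961 had 232 and 495. Since each was picked as a tumor's lowest, the choice itself favours higher values in the other tumor. Just above the positions given for Evl and Yy1, chr12:110200001-110400000 held 123 and 482 reads in PCT4961 and 284 and 23 in TEPC1165, and the tumors overlapped.

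The Evl and Yy1 windows, chr12:109800001-110000000 and chr12:110000001-110200000, stood out from both sides by detected share. The first held 3220 and 3556 reads in PCT4961 and 1423 and 2863 in TEPC1165. The second held 2070 and 3161 reads in PCT4961 and 366 and 874 in TEPC1165. In TEPC1165 replicate 1 it stood out little by reads, since the adjoining trough window held 284. In each of the 4 libraries the first window was the higher, and in both windows the 2 PCT4961 libraries lay above the 2 TEPC1165 libraries. Of the 120 fragments of the pair, 38 (31.7%, 95% Wilson interval 24.0 to 40.4) and 46 (38.3%, 30.1 to 47.3) had reads in PCT4961, and 31 (25.8%, 18.8 to 34.3) and 36 (30%, 22.5 to 38.7) in TEPC1165. By detected share, the first window ranked 41 and 36 in PCT4961 and 38 and 30 in TEPC1165 among the 12825 windows outside the bait region, and the second 42 and 39 and 69 and 51. By reads, the first ranked 28 and 35 in PCT4961 and 216 and 37 in TEPC1165. The second ranked 53 and 40 in PCT4961 and 1019 and 387 in TEPC1165.

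The low edge of the flank was sharp, though its position was chosen with earlier results of these data known. The window just outside it, from 109.6 to 109.8 Mb, held 85 and 39 reads in PCT4961 and 95 and 177 in TEPC1165, and 3 to 7 of its 58 fragments were detected, against 19 to 26 of 66 in the window just inside. Reads of the window just inside were 37.9 and 91.2 times those just outside in PCT4961, and 15.0 and 16.2 times in TEPC1165. At the other end of the trough, from the window starting at 111.4 Mb to the one starting at 111.6 Mb, reads differed by 27.2 and 9.80 times in PCT4961 and 26.98 and 2.75 times in TEPC1165, the second window being the higher, and between 5 and 8 of 60 fragments were detected in the first and between 24 and 35 of 58 in the second. The edge toward the bait was no such step. From 113.2 to 113.4 Mb, the last window inside, reads were 2943 and 3013 in PCT4961 and 6643 and 2361 in TEPC1165, and in the next one, 1048 and 1959 and 2795 and 6090, so that TEPC1165 replicate 2 went the other way from the other 3 libraries.

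**Figure D2:**
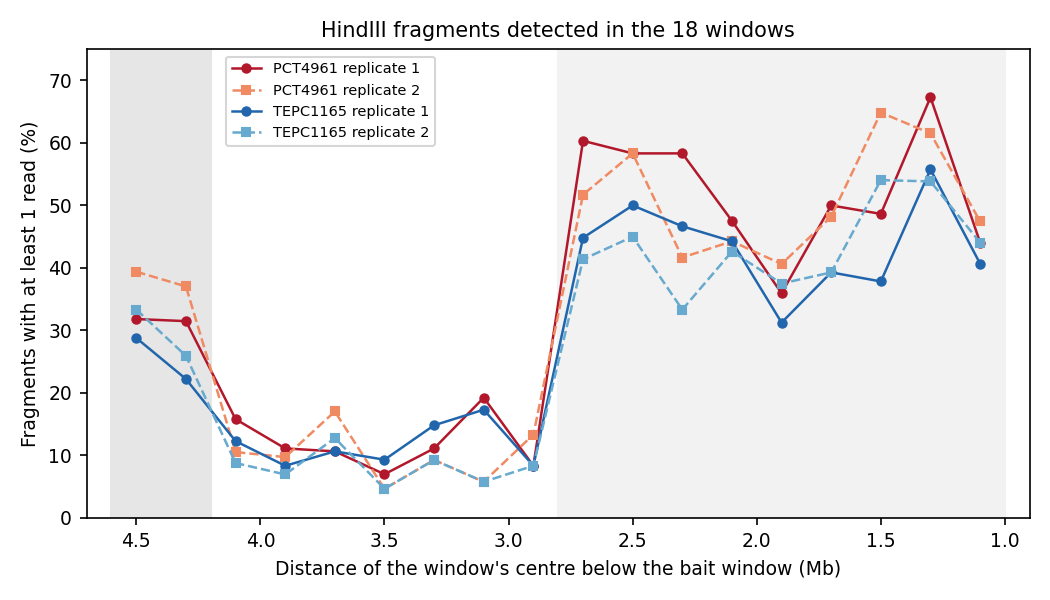
Share of each window's HindIII fragments with at least 1 read, in percent, against the distance of the window's centre below the bait window, 1 line per library, with the block near the bait and the Evl and Yy1 windows shaded. All 4 lines lie at or below 19.2% in the trough and at or above 31.25% in the block near the bait.

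The windows near the bait held more reads per window than the trough in every library. The ratio of their mean RPM to that of the trough was 31.3 and 21.0 in PCT4961 and 5.52 and 14.1 in TEPC1165. For the Evl and Yy1 windows it was 18.1 and 14.0 in PCT4961 and 1.32 and 7.58 in TEPC1165. In detected fragments the libraries lay closer together, with 4.36 and 4.95 (PCT4961) and 3.80 and 5.32 (TEPC1165) for the block, and 2.65 and 3.78 and 2.26 and 3.73 for the Evl and Yy1 windows. In TEPC1165 replicate 1 the Evl and Yy1 windows thus differed little from the trough by reads and by 2.26 times by fragments. Without its highest window in either stretch, that library's ratio by reads was 0.813.

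Distance alone did not order the windows. Across the 18 windows, the Pearson correlation of the detected share with the distance from the bait was between -0.71 and -0.66 in the 4 libraries, which are points of the same library and neighbours on 1 chromosome. Within the 9 windows near the bait, Spearman's rho was 0.33, -0.18, 0.28 and -0.42 in PCT4961 replicates 1 and 2 and TEPC1165 replicates 1 and 2. The 9 windows nearest to the bait held 5.96 ± 0.799 (SD, n = 2) times as many reads as the 9 farthest in PCT4961 and 5.43 ± 0.402 times (SD, n = 2) in TEPC1165, a ratio in which the Evl and Yy1 windows count among the farthest. Windows with more reads than both neighbours in both libraries of a tumor, called peaks here, numbered 5 in PCT4961 and 6 in TEPC1165. Of these, 2 were shared, the windows starting at 109.8 Mb (the first of the Evl and Yy1 windows) and at 111.8 Mb. The other PCT4961 peaks started at 110.6, 112.6 and 113.0 Mb, and the other TEPC1165 peaks at 110.4, 110.8, 111.2 and 112.2 Mb. Gaps, windows under 0.25 times the library's median flank window in both libraries, took in all 7 windows of the trough in PCT4961 and 2 in TEPC1165, those starting at 110.2 and 110.6 Mb, both shared. With 1 TEPC1165 library left out, 4 windows met this rule in that tumor, whichever was left out. The rule was stricter in TEPC1165, where the median flank window held 907 and 723 RPM, against 2687 and 2259 in PCT4961. The numbers of gaps therefore do not compare the tumors at an equal level of reads.

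Between the tumors, reads of the flank made up 4.54% (95% Wilson interval 4.50 to 4.58) and 3.93% (3.90 to 3.96) of all outside reads in PCT4961, and 2.31% (2.29 to 2.33) and 2.34% (2.31 to 2.36) in TEPC1165. The means were 4.23% ± 0.427 and 2.32% ± 0.0188 (SD, n = 2 each), and the groups did not overlap. The intervals cover counting error only. The direction depended on what the reads were divided by. Of the reads of chromosome 12 outside the bait region, the flank held 8.001% and 6.74% in PCT4961 and 17.6% and 18.4% in TEPC1165. The chromosome 12 reads of PCT4961 include 170587 and 237211 at chr12:12800001-13000000, and the outside reads of TEPC1165 include 282973 and 382973 at chr15:61800001-62000000. The part of these windows in either direction was not tested.

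No window of the flank was called different between the tumors. With edgeR's quasi-likelihood test and Benjamini-Hochberg adjustment at 0.05, 0 of the 18 windows passed, against 18 of all 3449 windows tested (0.522%), and DESeq2 called 0 of the 18 and 0 of all 3449. At an unadjusted p under 0.05 edgeR gave 1 window of the flank and 58 of all windows (1.68%), and DESeq2 0 and 165 (4.78%). That window, chr12:112600001-112800000, held 4920 and 6076 reads in PCT4961 and 1725 and 1949 in TEPC1165, a log2 fold change of PCT4961 over TEPC1165 of 2.23 (SE 0.95, adjusted p = 0.795 by edgeR). The unadjusted count depended on the fit. With the replicate number added as a term, edgeR gave 4 flank windows and 206 of all 3449. With scaling by total reads it gave 4 and 70. After adjustment 0 flank windows passed in either fit. With 1 TEPC1165 library left out, and the remaining one assumed to vary like the PCT4961 libraries, calls appeared. Without TEPC1165 replicate 1 edgeR called 4 windows, those starting at 111.6, 111.8, 112.6 and 113.0 Mb, against 41 of all 2393 windows tested (1.71%), with a smallest adjusted p of 6.43e-05. Without TEPC1165 replicate 2 it called 3, those starting at 111.8, 112.0 and 112.6 Mb, against 27 of all 2574 (1.05%), with a smallest adjusted p of 0.00185. All of these were higher in PCT4961, as were 35 of the 41 (1.46% of windows tested) and 25 of the 27 (0.971%). Without PCT4961 replicate 1 or 2, 0 of the flank and 18 (0.802%) and 0 of all windows were called.

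The fold changes that did not pass had this pattern. All 9 windows near the bait had positive log2 values, from 0.05 to 2.23 with a median of 1.36 and SEs of 0.69 to 1.13, but when windows of chromosome 12 were fitted alone 5 of these 9 were negative, those starting at 112.2, 112.4, 112.8, 113.0 and 113.2 Mb, as was the window starting at 109.8 Mb. The Traf3 pair had 0.05 (SE 0.84) below 112.4 Mb, where the direction turned under several settings, and 0.93 (SE 0.99) above it. The windows starting at 111.8 and 113.0 Mb, the highest of the flank, had 1.49 (SE 0.74) and 0.85 (SE 0.69). The Evl and Yy1 windows had 1.26 (SE 1.11) and 2.72 (SE 1.46), with 2837 ± 332 and 2144 ± 239 RPM in PCT4961 and TEPC1165 values of 1322 ± 710 and 384 ± 245 RPM (SD, n = 2 each). The 7 windows of the trough ran from -3.51 to 2.88 with SEs of 2.58 to 4.14, and 3 of them were positive. The windows starting at 110.2, 110.4 and 110.6 Mb had 1.88 (SE 3.73), -2.21 (SE 4.14) and 2.88 (SE 3.80).

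**Figure D3:**
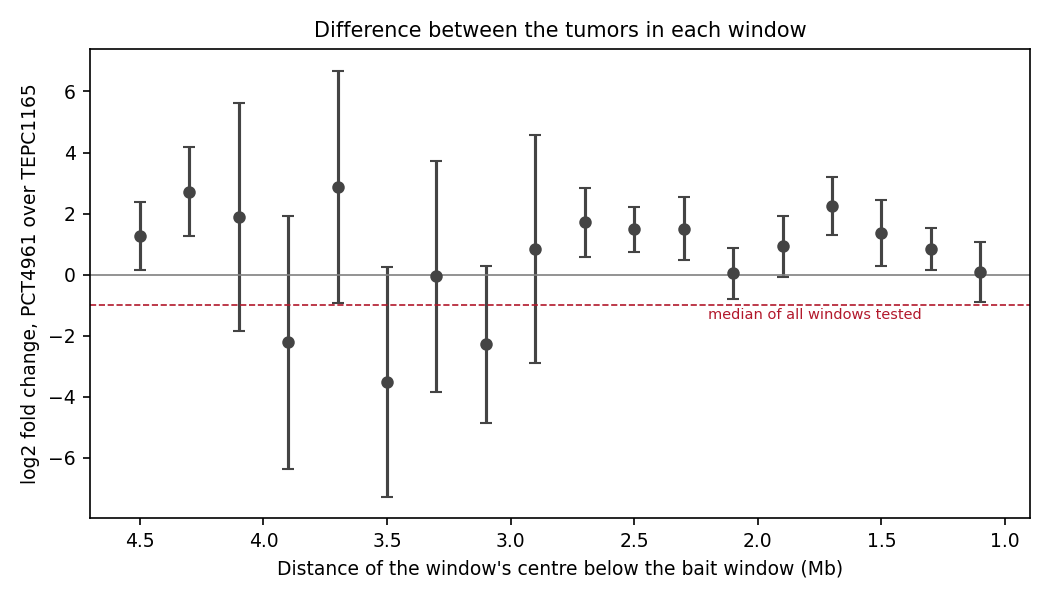
Log2 fold change of PCT4961 over TEPC1165 by edgeR in each of the 18 windows against the distance of the window's centre below the bait window. Bars are standard errors derived from the test's F statistic. The median of all 3449 windows tested is the dashed line at -1.01. The 9 points nearest to the bait lie at or above 0.05, and the points of the trough have bars several log2 units long.

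The median of the flank was 1.10 against -1.01 over all windows tested, with 14 positive and 4 negative values. The processing moved both medians and the distance of 2.10 between them. With DESeq2 size factors they were 0.31 and -1.70, a distance of 2.01, with 12 positive and 6 negative values. With reads corrected for sharing the medians were 1.02 and 0.39, a distance of 0.63, with no filter 0.67 and 0.03, a distance of 0.64, and without TEPC1165 replicate 1 1.37 and 0.84, a distance of 0.54. By detected fragments the distance was 0.20. The distance of the flank from all windows was thus not stable. Among windows of chromosome 12 alone the flank's median was -0.28 against -0.09, a difference of -0.19, with 7 positive and 11 negative values. By RPM, both PCT4961 libraries lay above both TEPC1165 libraries in 10 of the 18 windows, against 16.2% of all windows tested, and below in 3, against 9.25%. The 10 were both Evl and Yy1 windows, 7 of the 9 near the bait and 1 of the trough, and the 3 were all in the trough, those starting at 110.4, 110.8 and 111.2 Mb. By detected share, both PCT4961 libraries lay above in 6 of the 18 windows, against 4.78% of all windows tested, and below in 0. For the latter the share of all windows tested was not computed, so the 0 cannot be judged. Detected shares over chromosome 12 beyond the bait region, flank included, were also larger for PCT4961 (7.75% and 8.02%) than for TEPC1165 (6.29% and 6.36%). Those over the whole flank were 34.4% and 33.5% against 29.2% and 28.1%. The windows behind the 4.78% were not matched to the flank by detected share. Whether the count of 6 goes beyond the chromosome-wide difference was not tested. Neighbouring windows share their distance from the bait and the library's scale, so that these windows are not separate observations.

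Compared with the same distances on the other side of the bait (115.6 to 119.2 Mb, the side of the variable gene segments), the flank differed in order between the tumors. Mean RPM per window was 2352 ± 237 in the flank and 3442 ± 318 on the other side in PCT4961, and for TEPC1165 1291 ± 10.4 and 132 ± 36.8 (SD, n = 2 each). The ratio was 0.783 and 0.596 in PCT4961 and 12.1 and 8.23 in TEPC1165. One window carried much of the other side in PCT4961. The window starting at 115.8 Mb held 31450 and 48020 reads there, and without the highest window of each stretch the PCT4961 ratio was 1.22 ± 0.206 (SD, n = 2), above 1. By detected fragments both tumors were near 1, with 0.930 ± 0.0417 in PCT4961 and 0.936 ± 0.0663 (SD, n = 2 each) in TEPC1165. In TEPC1165 the other side had 327 and 348 of 1102 fragments detected with 3302 and 4456 reads, and same-numbered PCT4961 libraries had 395 and 410 detected with 60696 and 90195 reads. With reads corrected for the estimated sharing the TEPC1165 ratio was 18.3 ± 8.45 (SD, n = 2). The part of shared reads in the detected fragments of TEPC1165 was not tested.

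Against the next 18 windows away from the bait (106.2 to 109.8 Mb), the flank held more reads in all 4 libraries. Mean RPM there was 957 ± 2.67 (SD, n = 2) in PCT4961 and 303 ± 63.4 (SD, n = 2) in TEPC1165, and the flank was 2.46 ± 0.241 and 4.35 ± 0.874 times higher. Of the 1003 fragments of that stretch, 110 and 126 had reads in PCT4961 and 77 and 100 in TEPC1165, against 348 and 339 and 295 and 284 of the flank's 1012. Its highest window differed between libraries, starting at 106.2 and 107.2 Mb in PCT4961 replicates 1 and 2 and at 107.0 Mb in both TEPC1165 libraries. That window held 6390 and 6425 reads in PCT4961 and 2079 and 2334 in TEPC1165. Except in TEPC1165 replicate 2, this was more than either Evl and Yy1 window. The highest detected share there was 39.3% and 33.9% in PCT4961 and 27.6% and 27.7% in TEPC1165. The border between the stretches was chosen with earlier results of these data known.

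**Figure D4:**
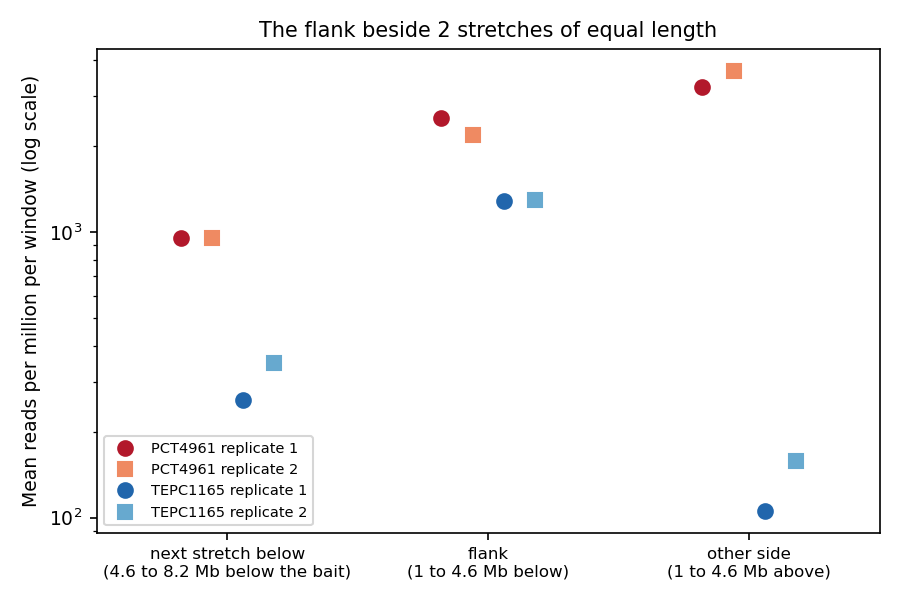
Mean RPM per window (log axis) in the flank, in the next 18 windows below it and in the 18 windows at the same distances on the other side of the bait, 1 point per library. The flank's points lie between 1284 and 2520 in all 4 libraries, and the other side's points lie at 3218 and 3667 in PCT4961 and at 106 and 158 in TEPC1165.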

How the data were processed

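4C libraries of 2 tumors were used, 4 of the series' 34 samples. The authors deposited, per the file headers, unnormalized counts of reads, of detected HindIII fragments and of all HindIII fragments per 200 kb window of mm9. Not given in the sources used here were the aligner, the bait's exact position and whether PCR copies were removed. Windows outside the bait region that reached 10 reads in 2 or more libraries were tested with edgeR 4.0.16 (R 4.3.3) on TMM-scaled counts, with a prior count of 2 and tumor as the only term, two-sided, adjusted over all 3449 windows. All 18 flank windows passed this filter. Fold changes by edgeR were shrunken with the prior count. The SEs beside them were derived as the size of the unshrunken log2 coefficient over the square root of the test's F statistic. DESeq2 1.42.0 was an alternative. Python 3.11.15 (pandas 2.3.3, scipy 1.17.1) served for sums and shares. No p is given for sums, since 2 against 2 libraries cannot go below 0.333 in an exact permutation test. Whether the libraries of a tumor stem from separate cultures is not in the labels, and p-values reflect library spread only, possibly technical.

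The windows and lists were chosen with earlier results of these data known. By rule, the highest and lowest window of each tumor, those of Evl, Yy1 and Traf3, called windows and shared peaks and gaps were given in full, and others by range. The windows singled out for many reads on few fragments, the window with the smallest p and the 3 stretches were chosen after their values were seen, as were the ratios to the trough and the correction for sharing, which subtracts the estimated share of the same-numbered library's reads. All 22 genes of the background list were found in the GRCm38 order.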

Additional observations from a re-analysis of the deposited data

Results flagged for a closer look

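The ratio of mean reads per window in the flank to those at the same distances on the other side of the bait lay below 1 in both PCT4961 libraries, at 0.783 (replicate 1) and 0.596 (replicate 2), and above 1 in both TEPC1165 libraries, at 12.1 (replicate 1) and 8.23 (replicate 2). It stood out because every library of one tumor went the opposite way from every library of the other. The difference was not tested. It did not hold for the median window, where PCT4961 was also above 1, nor for detected fragments, where both tumors were just below 1.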

How the results depend on the processing

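With 2 libraries per tumor and 10 to 495 reads per trough window in PCT4961, all 7 trough differences were within 1 standard error. With medians over windows, the ratio of the 9 nearest to the 9 farthest windows was 21.0 in PCT4961 and 9.15 in TEPC1165, the PCT4961 ratio of the flank to the other side was 2.85, a reversal, and that to the next stretch 26.2. By detected fragments these were 3.05 and 3.07 (nearest to farthest), 0.930 and 0.936 (other side, a reversal in TEPC1165) and 2.90 and 3.31 (next stretch) in PCT4961 and TEPC1165, and the PCT4961 ratios to the trough were 4.65 for the block near the bait and 3.22 for Evl and Yy1. Without the highest window of each stretch they were 9.23 and 7.79 (nearest to farthest), and in PCT4961 1.22 (other side, a reversal) and 3.03 (next stretch). Correction for sharing, chosen after seeing the data, moved the TEPC1165 ratio to the other side to 18.3 and left the flank's share at 4.6997%, 4.01%, 2.26% and 2.31%. The log2 ratio of the flank's read share between the tumors, 0.87, was 0.34 of all reads, 1.08 for the median window and -1.29, a reversal, of chromosome 12. All windows (100%) had at least 10 reads in both tumors. Peaks numbered 1 in PCT4961 and 2 in TEPC1165 at 2 times both neighbours, and 3 in PCT4961 per fragment. Gaps in TEPC1165 numbered 1 below 0.1 times and 5 below 0.5 times the median, and 4 with either library left out. Causes were not tested.

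Called windows numbered 0 to 4 in the flank and 0 to 41 in the genome with 1 library left out. With a replicate block edgeR called 0 windows of the flank and 12 of the genome. Only the labels' numbers pair the libraries, though deviations of same-numbered libraries correlated at 0.64 over 3449 windows. The 10 windows given with fold changes were those named by rule and the one with the smallest p. Over 130 repeats for them, 115 kept direction and call and 10 reversed. The rest, all with 1 TEPC1165 library left out, kept direction but not call. Among chromosome 12 windows alone, 7 flank windows turned negative, 5 of them near the bait, with log2 values of -0.085, -1.21, -0.48 and -0.47 for the windows starting at 109.8, 112.2, 112.4 and 113.0 Mb. By detected fragments the window starting at 110.4 Mb had 0.30. The window starting at 112.2 Mb had -0.60 with DESeq2, as scaling or as the test, -0.22 unfiltered, -0.16 with at least 50 reads, and -0.86 to 1.31 with 1 library left out.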
